A study of Gallus gallus with 3 samples.

Results

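Blood and vessel miRNAs were read in the leg muscle of dwarf and normal chickens to see how much RNA of red cells, white cells and endothelium each muscle sample carried. They were the 10 probes named gga-miR-451, gga-miR-144, gga-miR-223, gga-miR-142-5p, gga-miR-142-3p, gga-miR-126, gga-miR-155, gga-miR-146a, gga-miR-146b and gga-miR-146c (gga for Gallus gallus, left out below), chosen by name from the 542 miRNAs of the array, with star strands left aside. Of these 10 probes, 6 were detected in both strains, and for none of these 6 did the difference between the strains exceed the spread between the arrays. The endothelial miR-126 stood far above background in every sample, and the 3 miR-146 probes were present throughout. The erythroid miR-451 was low, present in all samples by the standard of detection but close to background in some. The granulocyte miR-223 lay at the limit of detection, while miR-144 and both arms of miR-142 were not told from background.

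The samples came from meat-type recessive White Rock chickens at 7 weeks of age. The dwarf strain carried a deletion in the growth hormone receptor gene (GHR) that removed the end of its last exon and part of the 3' UTR, and the normal strain of the same breed was the control. Both strains were kept under the same feeding conditions. RNA of 3 chickens was combined in a pool, and 3 pools were made for each strain, so each strain was represented by 9 chickens. A pool gives the average of its chickens, so the variation between single birds was not measured. One dwarf pool and one normal pool were labelled with different dyes and placed on the same array, which gave 3 arrays in all. The dwarf pool carried Cy5 on arrays 1 and 3 and Cy3 on array 2. Pools are named below by strain and array, for instance dwarf pool 3. The sex of the birds at this age, and whether vessels were drained of blood before the muscle was cut out, were not given in the sources used here.

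In vertebrates miR-451 and miR-144 are made from one transcript in the red cell lineage, and the red cells of birds, unlike those of mammals, keep their nucleus. The maturation of miR-451 bypasses Dicer and uses Argonaute 2 in mouse and zebrafish. miR-142 is found across white cells of all lineages and is widely used as a mark of haematopoietic cells. In mouse, miR-223 is a miRNA of granulocytes and monocytes. miR-155 comes from the host gene first known as bic, which was found in chicken lymphomas, and it is induced in activated B cells, T cells and macrophages. The miR-146 family is induced by NF-kB and lowers TRAF6 and IRAK1 in mammals, and it is made outside white cells as well. miR-126 lies in an intron of EGFL7, an endothelial gene, and in mouse and zebrafish it keeps vessels intact by lowering SPRED1, which supports VEGF signalling. Muscle fibres are wrapped in capillaries, so endothelium is a regular part of any piece of muscle.

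The mature sequences are shown because the array reads each miRNA through a probe to it, and the likeness of the miR-146 sequences decides how far their values can be kept apart. They were read from the target column of the deposited array tables and run from 5′ to 3′, with the seed, bases 2 to 8, in capitals.
gga-miR-451: aAACCGUUaccauuacugaguuu
gga-miR-144: cUACAGUAuagaugauguacuc
gga-miR-142-5p: cCCAUAAAguagaaagcacuac
gga-miR-142-3p: uGUAGUGUuuccuacuuuaugg
gga-miR-223: uGUCAGUUugucaaauacccc
gga-miR-155: uUAAUGCUaaucgugauagggg
gga-miR-146a: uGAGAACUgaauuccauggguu
gga-miR-146b: uGAGAACUgaauuccauaggcg
gga-miR-146c: uGAGAACUgaauuccauggacug
gga-miR-126: uCGUACCGugaguaauaaugcgc
gga-miR-126*: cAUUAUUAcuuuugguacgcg

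The 3 miR-146 sequences share one seed, and no other probe on the array carries it. Over their first 22 bases, counted from the 5′ end, miR-146a and miR-146b differ at 3 bases (G18A, U21C and U22G, with the miR-146a base first). Between miR-146a and miR-146c the differences are 2 (G20A and U21C), and between miR-146b and miR-146c they are 3 (A18G, G20A and G22U). All of them lie near the 3′ end, and whether probes of this family take up each other's RNA was not tested, so the 3 values are not treated as independent of each other. The seed of miR-144 is shared with miR-101, and the seeds of the others are found on no other probe of the array.

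All 10 probes matched a gene in the RefSeq table of the GRCg7b assembly, which was used here only for names and neighbours. MIR144 and the gene of miR-451, there called MIR451B, lie next to each other inside LOC121107271. Both arms of miR-142 come from MIR142, inside LOC107054776 and next to SUPT4H1, which encodes a transcription elongation factor. MIR126 lies within EGFL7, next to NOTCH1. MIR155 lies within MIR155HG, its host transcript, MIR223 within LOC107053194 next to HSF3, MIR146A within LOC121106732 and MIR146C-1 within DDRGK1. MIR146B lies within no listed gene.

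Each array had 3968 spots, of which 3252 carried the 542 miRNAs in 6 spots each and 408 were empty. The deposited values were spot intensities on a linear scale, in Cy3 and in Cy5. A smooth surface through the miRNA spots, most of which took up no RNA, served as the background of a dye on an array, and its median was 829.3, 303.9 and 698.3 in Cy3 and 51.4, 44.3 and 53.2 in Cy5 on arrays 1, 2 and 3. The signal of a miRNA in a pool is the mean of its 6 spots over this background after correction of the dyes and scaling of the arrays, in arbitrary units. A miRNA was called detected where its mean signal over the 3 pools of a strain was above 32, the standard of the study. By this rule 85 of 542 miRNAs (15.7%) were detected in either strain, against 6 of the 10 blood and vessel probes. The study applied the value of 32 to signals of its own processing and reported more detected miRNAs at this age. Its threshold and the one used here are therefore not on the same scale. The height of a probe over background was also expressed in noise units. These are the distance from the median of all 542 miRNAs on that array and in that dye, divided by their scaled median absolute deviation. The scaling is the usual one, which makes the deviation equal to the SD for normally distributed noise. That scaled deviation was 24.0, 8.95 and 15.1 in Cy3 and 2.09, 1.82 and 3.04 in Cy5 on the 3 arrays. The noise was thus smaller in Cy5 in units of intensity. Since the dyes differ, noise units serve here to tell a probe from background and not to compare strains. Levels of different probes are not compared, because probes bind with different strength.

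Among the skeletal muscle miRNAs, 6 of the 7 on the array were detected in either strain (miR-1a, miR-206, miR-133a, miR-133b, miR-133c and miR-499, but not miR-1b), so the defining markers of the labelled tissue were present. miR-499 passed in the dwarf strain only, with means of 317.8 in dwarf and 30.3 in normal pools, and was above 32 in 3 of 6 pools. The markers of vessel wall smooth muscle, miR-143 and miR-145, had no probe on the array, so vessels were represented by miR-126 alone. Among 8 markers of brain, pancreas, epithelium and liver, 7 were not detected. The exception was the liver miRNA miR-122, at 90.2 in the dwarf pools and 179.0 in the normal pools and above 32 in 5 of 6 pools, with a log2 ratio of -0.75 (adjusted p = 0.769, limma). That mean rested on array 3, since the ratios on arrays 1, 2 and 3 were -0.15, -0.045 and -2.06. The pool below 32 was dwarf pool 3, at 3.34 against 247.5 in normal pool 3.

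**Figure D1:**
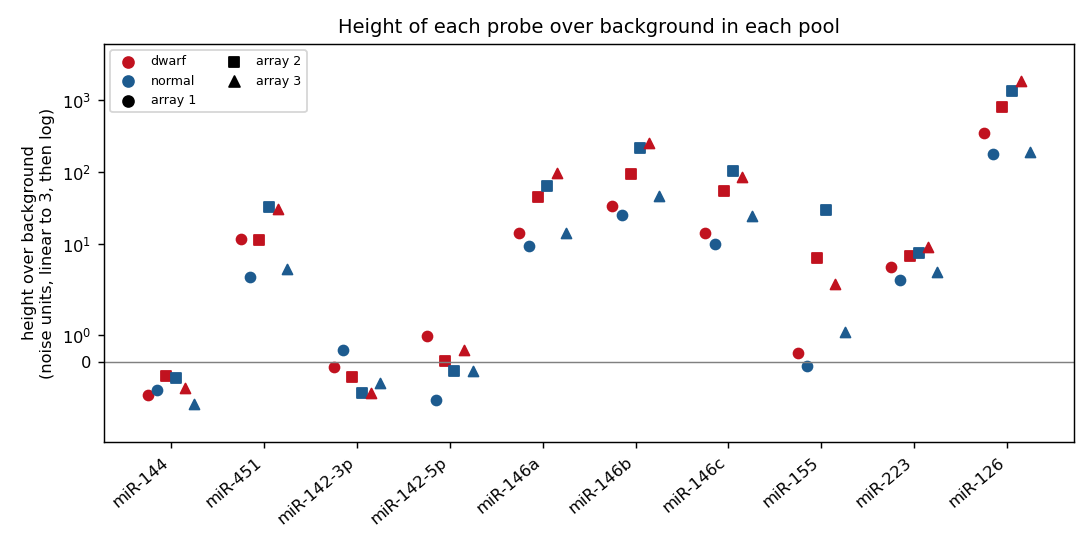
Height over background (vertical axis, noise units, linear up to 3 and logarithmic beyond) of the 10 blood and vessel miRNAs in each of the 6 pools, with dwarf pools in red, normal pools in blue and one symbol for each array. miR-144, miR-142-3p and miR-142-5p lie between -1.58 and 0.97, and miR-126 lies between 176.1 and 1868.

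The endothelial miRNA was plainly present. gga-miR-126 had a signal of 2405.7 in dwarf pool 1, 3079.7 in dwarf pool 2 and 5167.4 in dwarf pool 3. In the normal pools its signal was 4024.0, 2554.9 and 2211.4 on arrays 1, 2 and 3. The highest and the third highest value were thus in dwarf pools, the lowest in a normal pool, and the ranges of the strains overlapped. The highest pool exceeded the lowest 2.15-fold among dwarf pools and 1.82-fold among normal pools. Its star strand, which is cut from the other arm of the hairpin, was at background in all pools, as were miR-146b* and miR-146c*, the other star strands of these hairpins on the array. Such a reading does not show that a strand is absent, and its cause was not tested. The 18 values of the star strands lay between -16.4 and 6.11 in signal and between -1.02 and 1.30 noise units.

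The mean signal of miR-126 was 3551 ± 1440 in the dwarf pools and 2930.1 ± 963 in the normal pools (SD, n = 3). The log2 ratio of dwarf over normal, calculated from the 2 dyes of one array after background correction and loess, came to -0.73, 0.26 and 1.15 on arrays 1, 2 and 3. In words, the dwarf pool was below its partner on array 1, slightly above it on array 2 and far above it on array 3. The mean was 0.23 (SE 0.34, 95% confidence interval -0.58 to 1.04), with an adjusted p of 0.970 by limma with Benjamini-Hochberg adjustment. Here and below, SE and interval come from limma, which draws the variance of each miRNA toward that of the other detected miRNAs. For miR-126 both are narrower than its own 3 ratios would give, and so they are for miR-451, miR-146a and miR-146b. Sign flips of the 3 ratios in an exact permutation test gave p = 0.75, and exchanging the 6 pools between the strains in another exact permutation test gave p = 0.6, both two-sided. These tests cannot give less than 0.25 and 0.1 with 3 arrays, so neither can pass 0.05.

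The 6 spots of miR-126 gave like ratios within an array. They lie in 2 parts of the array, and the ratios of the upper and the lower spots differed by no more than 0.072 on any array. The SD of the 6 spot ratios was 0.12 to 0.14, against an SD of 0.94 between the arrays. The median SD between arrays over the 85 detected miRNAs was 0.28. That median includes dim miRNAs, whose ratios are drawn toward 0 by the offset used in the background correction. Arrays 1 and 3 had the same dye orientation and the opposite sign. Before any correction of the dyes, the 6 spots of miR-126 stood 726.8 over background in Cy5 and 4231 in Cy3 on array 1, against 5679 in Cy5 and 2835 in Cy3 on array 3. The log2 ratios in the authors' own table, read as dwarf over normal, were -0.68, 0.29 and 1.31. In bulk tissue, fewer cells of a type and less RNA per cell cannot be told apart, which holds for every miRNA described here.

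**Figure D2:**
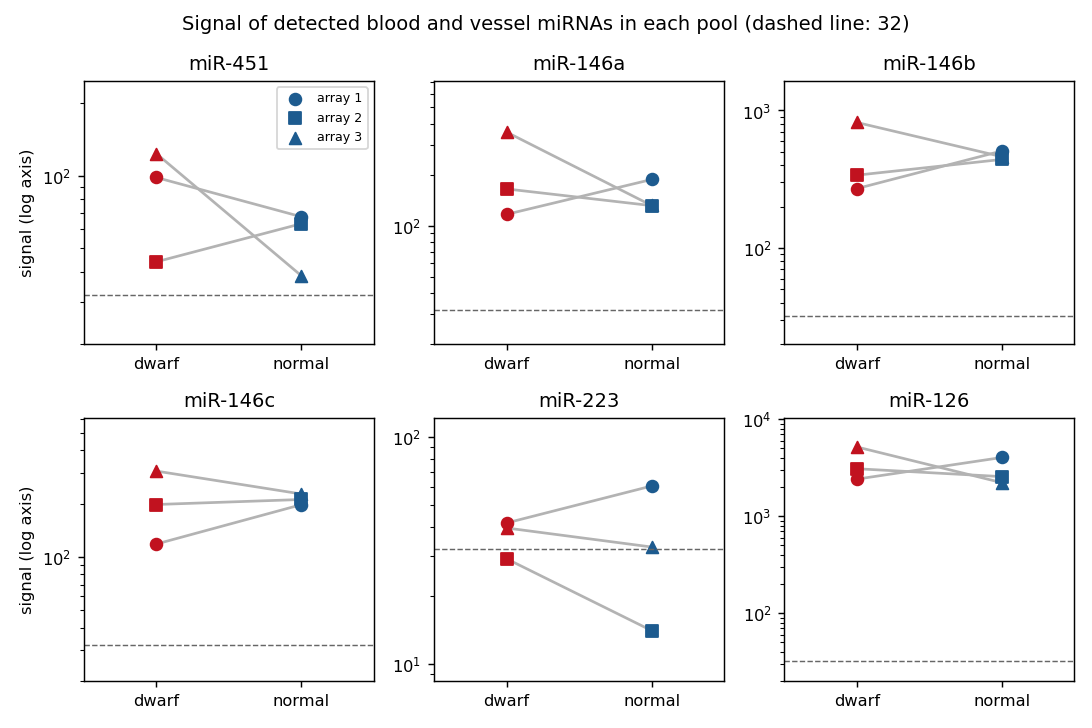
Signal (vertical axis, logarithmic, arbitrary units, a separate scale in each panel) of the 6 detected blood and vessel miRNAs in the dwarf pools (red) and the normal pools (blue), with a line joining the 2 pools of one array and a dashed line at 32. In 5 panels the highest point is dwarf pool 3, and in every panel the strains overlap.

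Of the 2 erythroid miRNAs, miR-451 was detected and miR-144 was not. The signal of gga-miR-451 was 98.5, 44.0 and 123.7 in dwarf pools 1, 2 and 3. It was 67.6, 63.3 and 38.5 in normal pools 1, 2 and 3. All 6 pools were above 32 and between 3.48 and 32.8 noise units, although the lowest pool in signal, normal pool 3, was close to the standard. In noise units, normal pools 1 and 3 were the lowest, at 3.48 and 4.55. There miR-451 stood little higher than miR-223, which was at 3.15 and 4.09. Dwarf pool 3 was the highest and normal pool 3 the lowest, and the strains overlapped. The range was 2.82-fold among the dwarf pools and 1.76-fold among the normal pools.

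The means of miR-451 were 88.7 ± 40.8 in dwarf and 56.5 ± 15.7 in normal pools (SD, n = 3). In order of the arrays the log2 ratios were 0.20, -0.55 and 0.61, so it was positive on the arrays with the dwarf pool in Cy5 and negative on the array with the dyes exchanged. With 1 array in the second orientation, an effect of the dye and a difference of these pools cannot be told apart. The mean log2 ratio was 0.086 (SE 0.25, 95% interval -0.51 to 0.68, limma adjusted p = 0.970), and the exact permutation tests gave p = 0.75 for the ratios and p = 0.3 for the pools. The mean was 0.56 with plain subtraction of the background and 0.57 with the pools compared without pairing by array. It was 0.32 in the authors' table or with median centring, and none of these passed the adjusted threshold. Median centring also moved the median of all 85 detected miRNAs to 0.51, so on that scale miR-451 lay below the typical miRNA. The authors' table gave 0.88, -0.93 and 1.01 on the 3 arrays, the same signs with a wider swing. The offset used here in the background correction draws the ratios of dim probes toward 0, which narrows the ratios of miR-451 and miR-223 more than those of brighter probes.

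The partner of miR-451 on the same transcript gave no reading. gga-miR-144 had signals of -8.7, -1.6 and -3.8 in the dwarf pools and -20.6, -0.57 and -10.9 in the normal pools, where a negative signal is a spot below the estimated background. No pool was above 32, and every pool was below the median of all miRNAs in its dye. The smallest amount that this probe could show is not known, so a probe at background does not show that the miRNA is absent. miR-101, named here after its values were seen because it has the seed of miR-144, was detected, with a mean signal of 61.7 in the dwarf and 40.9 in the normal pools.

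Among the 7 leukocyte miRNAs, 4 were detected, namely the miR-146 probes and miR-223. The broadest mark of white cells was at background. gga-miR-142-3p had signals of -0.39, -1.9 and -4.7 in the dwarf pools and 9.7, -1.4 and -4.6 in the normal pools. gga-miR-142-5p, from the other arm of the same hairpin, had 8.6, 0.94 and 2.3 in the dwarf pools and -27.1, -0.069 and -1.2 in the normal pools. Together with miR-144 these make 18 pool values, all between -27.1 and 9.66 in signal and between -1.58 and 0.97 noise units, a span close to that of the star strands. The label of white cell RNA therefore rests on miRNAs that other cells also make and on miR-223, while both arms of miR-142 did not show it.

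For gga-miR-223, the signal was 41.8, 29.0 and 39.7 in the dwarf pools and 60.8, 14.0 and 32.7 in the normal pools. Both pools of array 2 lay below 32, and the other 4 of 6 pools were above it, with means of 36.8 ± 6.83 and 35.9 ± 23.6 (SD, n = 3). In noise units all pools stood between 3.15 and 9.21. Normal pool 1 was the highest and normal pool 2 the lowest, with the dwarf pools between them. The log2 ratios were -0.025, 0.053 and 0.015, with an SD of 0.039, a mean of 0.014 (SE 0.17, 95% interval -0.38 to 0.41, limma adjusted p = 0.970) and exact permutation p values of 0.75 for the ratios and 1 for the pools. At this height the offset of 50 is of the same order as the signal, so the narrow spread of the 3 ratios is no measure of precision.

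The 3 miR-146 probes were above 32 in all pools. miR-146a had signals of 116.6, 164.7 and 356.4 in the dwarf pools and 187.3, 131.3 and 131.5 in the normal pools. miR-146b had 270.4, 338.5 and 818.1 in the dwarf pools and 508.0, 440.6 and 461.2 in the normal pools. miR-146c had 118.5, 198.0 and 305.8 in the dwarf pools and 197.7, 211.4 and 227.0 in the normal pools. For each of them dwarf pool 1 was the lowest of all 6 pools and dwarf pool 3 the highest, with the normal pools between. The ranges were 3.06-fold, 3.03-fold and 2.58-fold among the dwarf pools for miR-146a, miR-146b and miR-146c. Among the normal pools they were 1.43-fold, 1.15-fold and 1.15-fold.

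For miR-146b and miR-146c the means of the strains lay close together, and for miR-146a the dwarf mean was higher, within the spread of its pools. They were 212.6 ± 126.9 in dwarf and 150.03 ± 32.2 in normal pools for miR-146a, 475.6 ± 298.5 and 469.9 ± 34.6 for miR-146b, and 207.4 ± 94.0 and 212.02 ± 14.7 for miR-146c (SD, n = 3). The log2 ratios on arrays 1, 2 and 3 were -0.27, 0.063 and 0.85 for miR-146a. For miR-146b they were -0.61, -0.42 and 0.62, and for miR-146c -0.30, -0.21 and 0.17. All 3 were lowest on array 1 and highest on array 3. The mean log2 ratios were 0.22 (SE 0.25, 95% interval -0.37 to 0.80), -0.14 (SE 0.27, -0.78 to 0.50) and -0.11 (SE 0.18, -0.55 to 0.33) for miR-146a, miR-146b and miR-146c, each with a limma adjusted p of 0.970. The exact permutation tests gave p = 0.75, 1 and 0.5 for the ratios and p = 0.7, 1 and 0.9 for the pools.

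gga-miR-155 was not detected, and its only pool above 32 rested on a single spot. Its signals were 3.8, 24.7 and 13.9 in the dwarf pools and -2.0, 61.6 and 9.5 in the normal pools. On array 2, 1 of its 6 spots, in row 17 and column 3, had a Cy5 intensity of 363.9, while the other 5 spots were between 41.3 and 53.2. The same spot stood 306.7 over background in Cy3, against 5.25 to 22.2 for the others, so it was bright in both dyes. With the median of the 6 spots in place of the mean, the signal on array 2 became 2.45 in the normal pool and 4.39 in the dwarf pool. No other pool reached 32 for this leukocyte miRNA.

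**Figure D3:**
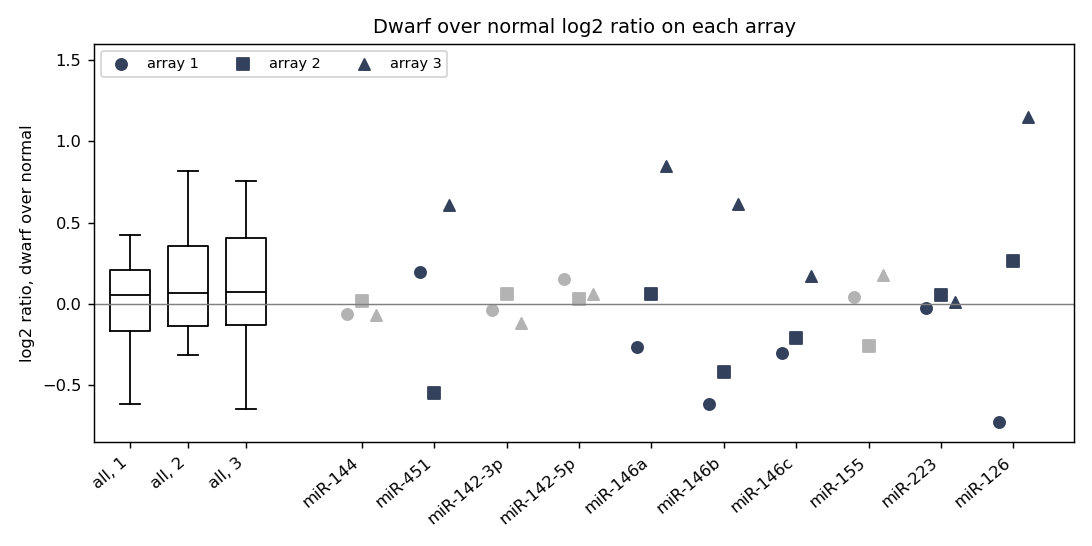
Log2 ratio of dwarf over normal (vertical axis) of the 10 blood and vessel miRNAs on each array, in dark symbols for the 6 detected and grey for the 4 not detected, beside boxes of all 85 detected miRNAs on arrays 1, 2 and 3 (middle line, median; box, quartiles; whiskers, 5th and 95th percentiles). The medians of the 6 detected were -0.28, -0.078 and 0.61 in that order, while the medians of all 85 stayed between 0.057 and 0.073.

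Read pool by pool, dwarf pool 3 had the highest signal of all pools for 5 of the 6 (miR-451, miR-126 and the miR-146 probes). The same held for 27.1% of the 85 detected miRNAs. On array 3 all 6 log2 ratios were above 0, as were 56.5% of the 85. On array 1 the ratios of 5 of 6 were below 0, against 44.7%, and the exception was miR-451. A ratio below 0 on array 1 together with one above 0 on array 3 was found for 5 of 6, against 25.9%. These counts include miR-223, at -0.025 and 0.015 on arrays 1 and 3. The SD of its spot ratios was 0.18 and 0.20 there, so its sign is not told from noise. On array 2, 3 of 6 were above 0, against 60%. The authors' table gave smaller counts. There, 4 of 6 were above 0 on array 3, against 49.4% of the 85, with miR-146c at -0.085 and miR-223 at -0.085. Below 0 on array 1 and above 0 on array 3 were 3 of 6 (miR-126, miR-146a and miR-146b), against 27.1%. With 3 near-identical miR-146 sequences among them, these counts do not stand for 6 separate readings.

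The median log2 ratio of the 6 was -0.28, -0.078 and 0.61 on arrays 1, 2 and 3, beside 0.057, 0.069 and 0.073 for all 85. The median of the mean log2 ratios was 0.050 for the 6, over members of both signs, and became -0.20 without array 3. It was 0.047 for the 85, which loess holds near 0. None of the 6 had the same sign on all arrays, against 29.4% of the 85, though in the authors' table miR-146c was below 0 on all 3 (-0.58, -0.37 and -0.085). For none did the pools of the strains fall into separate ranges, against 14.1%. The SD was larger among the dwarf than the normal pools for 5 of 6, but so it was for 71.8% of the 85. At the adjusted threshold of 0.05 none of the 85 miRNAs was called by limma (0%), and 4 (4.71%) had an unadjusted p under 0.05, none of them a blood or vessel miRNA. In all 6 pools, 5 of the 10 probes were above 32, against 12% of the 542.

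Several muscle miRNAs moved the other way between arrays 1 and 3. miR-133a, a miRNA of muscle fibres, had signals of 6663.4, 3107.03 and 1547.9 in dwarf pools 1, 2 and 3 and of 5033.6, 3316.4 and 2588.4 in the normal pools. Its log2 ratios were 0.36, -0.090 and -0.77. Those of miR-133b were 0.42, -0.077 and -0.65, those of miR-133c 0.66, -0.56 and -0.84, and those of miR-206 0.12, 0.023 and -0.51. Each of these 4 was highest in dwarf pool 1 and lowest in dwarf pool 3, the pool in which 5 blood and vessel miRNAs were highest. They include the 3 miR-133 probes, which are of the same family, so they do not stand for 4 separate readings. Ratios above 0 on array 1 and below 0 on array 3 were not particular to muscle miRNAs. Those of let-7b were 0.30 and -0.031 there, and those of miR-1777 were 0.55 and -0.63. Their share over all detected miRNAs was not counted. The other 2 of the 6 detected muscle miRNAs did not follow these 4. miR-1a had ratios of -0.28, -0.75 and -0.25, and miR-499, a slow fibre miRNA in mammals, had 0.10, 2.15 and 1.93. On array 1 both pools of miR-499 were below 32, at 12.5 in dwarf and 2.64 in normal, so its ratio there is no reading. None of the 6 passed the adjusted threshold, with a smallest adjusted p of 0.418 for miR-499. Ratios are centred within an array, so the high and the low miRNAs of one array are not independent readings, and the part of the muscle miRNAs in the pattern of the blood and vessel miRNAs was not tested.

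The ratios were also set beside base composition, with the largest correlation on array 1. Over the 85 detected miRNAs the correlation of the log2 ratio with the GC content of the mature miRNA came to 0.39, -0.17 and -0.22 in the order of the arrays, where the 85 points share one array, its 2 pools and its normalization. The 6 detected blood and vessel miRNAs had a GC content of 34.8% to 47.8%, against a median of 47.6% for the 85, while miR-133c had 59.1%. With a linear trend on GC taken out of each array, the ratios of miR-126 on arrays 1, 2 and 3 were -0.69, 0.24 and 1.12 and those of miR-146a -0.16, 0.0081 and 0.76. Those of miR-451 became 0.36, -0.64 and 0.47. Array 3 stayed above array 1 for all but miR-223, at 0.059 and -0.057. For miR-451, the lowest of the 6 in GC content, arrays 1 and 3 drew closer, from 0.20 and 0.61 before. The GC content of miR-126, 47.8%, is close to the median of the 85, so taking out a linear trend could hardly move it. The part of base composition in the pattern was not tested.

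The miRNAs that followed each blood and vessel miRNA most closely over the arrays were found by the mean absolute difference of their 3 log2 ratios, over all 85. For miR-126 the nearest were let-7i (0.14), let-7g (0.23) and let-7f (0.24), where the median distance to all others was 0.73. let-7i had ratios of -0.61, 0.058 and 1.24, close to those of miR-126 on every array. Nearest to miR-451 were miR-762 (0.15), miR-10a (0.18) and let-7c (0.27), with a median of 0.52. For miR-146a they were miR-21 (0.13), let-7k (0.15) and miR-15a (0.15), with a median of 0.47. miR-23b (0.21), let-7f (0.25) and miR-16 (0.27) were nearest to miR-146b, with a median of 0.59. let-7a (0.085), miR-2188 (0.095) and miR-128 (0.11) were nearest to miR-146c, with a median of 0.36, and miR-30c (0.068), miR-29c (0.083) and miR-456 (0.096) to miR-223, with a median of 0.27. No blood or vessel miRNA was among the 3 nearest of another, the miR-146 probes included. A small distance over 3 arrays is a description of these arrays only.

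**Figure D4:**
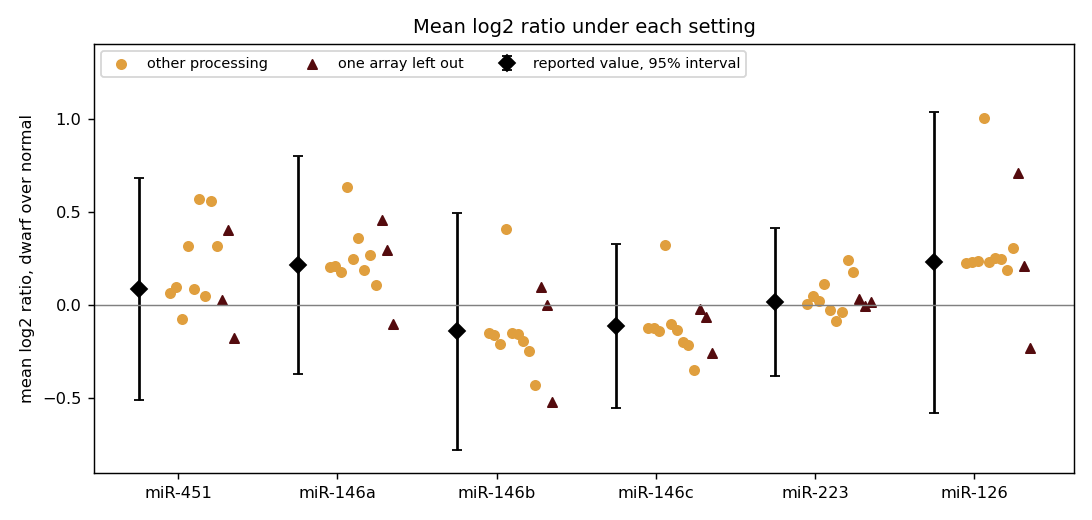
Mean log2 ratio of dwarf over normal (vertical axis) of the 6 detected blood and vessel miRNAs, as reported (black diamonds with 95% confidence intervals), under 9 other ways of processing (orange points) and with one array left out (dark triangles). All 6 reported intervals hold 0, and leaving out array 3 moves miR-126 from 0.23 to -0.23 and miR-451 from 0.086 to -0.18.

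For 5 of the 6 miRNAs the direction of the mean depended on single arrays, and miR-146c alone stayed below 0 with any array left out, at -0.26 to -0.018. Without array 3, the mean log2 ratio became -0.23 for miR-126, -0.18 for miR-451 and -0.10 for miR-146a, each below 0 in place of above. Without array 1, it became 0.097 for miR-146b, and without array 2 it became 0.00044 for miR-146b and -0.0050 for miR-223. None of the 6 passed the adjusted threshold with any array left out. Centring each array on its median in place of loess raised the median log2 ratio of all 85 from 0.047 to 0.51, and with it miR-126 to 1.01 and miR-146b and miR-146c to 0.41 and 0.32. On that scale the ratios of miR-126 were -0.28, 0.81 and 2.48 where the medians of the 85 were 0.11, 0.67 and 0.70, so it again lay below the median on array 1 and above it on array 3.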

How the data were processed

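The array was a two-colour miRNA array of LC Sciences designed on miRBase, scanned with a GenePix instrument and read with Array-Pro software. The authors deposited spot intensities of both dyes on a linear scale, neither background-subtracted nor normalized. They also deposited a table that gives every miRNA 1 log2 ratio on each array, with background already subtracted and LOWESS applied. It was used with its signs as deposited and read as dwarf over normal, because it correlated positively with the ratios calculated here (r = 0.83, 0.88 and 0.89 over 85 miRNAs). Its direction is therefore no separate check of theirs. The sample titles name the normal strain before the dwarf strain, and the fold changes printed in the study compare normal with dwarf chickens. Taken alone, these labels would give the opposite reading. The medians of the deposited table over all miRNAs were 0.148, 0.018 and 0.148. No rescaling or centring was done to it, and how it combined the spots is unknown. The genome build of the study is not given in the sources used here. For RNA isolation, the sample records and the study's methods name different kits.

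limma 3.58.1 was run in R 4.3.3. Robust loess on spot position (span 0.3, degree 1), fitted to log2 intensities, gave the background. Ratios were made by normexp (offset 50), followed by loess within each array on the miRNA spots (span 0.3, 4 iterations), the 6 spots were averaged and array 2 was turned. For signals, the background was subtracted, the same loess curve was shared between the dyes, and a common median was set for the arrays over the miRNAs whose signals all exceeded 32. limma (lmFit and eBayes) tested the mean ratio of the 85 detected miRNAs against 0, with Benjamini-Hochberg adjustment and a threshold of 0.05. Exact permutation tests were run for single miRNAs. The pools held different chickens, and pools were paired only by sharing an array. The precision is limited by the 3 arrays. The steps were also run on simulated data with known changes. The simulated spread between arrays was smaller than that of miR-126, miR-146b, miR-451 and miR-146a, so that run says nothing on the precision of their ratios.

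The members, marker lists and alternatives were chosen with earlier results of these data known. Named miRNAs were those matching the list of names, the star strands of their hairpins, the lists of muscle, vessel wall and other tissues, and the 3 detected miRNAs nearest to each in their ratios. Alternatives covered background, normalization, spot summary, dye term, GC trend, filter, test, pairing and left-out arrays. All columns used belonged to samples of the series.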

Additional observations from a re-analysis of the deposited data

How the results depend on the processing

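No blood or vessel miRNA passed the adjusted threshold under any setting, and their smallest adjusted p was 0.133, without replicate 1. The count of called miRNAs, 0 in the report, became 3 with the GC trend taken out and 1 of 58 with a mean signal above 100 as the filter. It was 0 to 4 with one array left out (4 without replicate 1). A fit with one array left out held only 2 arrays, and limma drew its variances toward those of the other miRNAs. Such counts, and the 0.133 above, therefore say little on precision. At an unadjusted p under 0.05 the count among 85 ran from 2 (without replicate 2) to 19 (median centring), and it was 21 of 542 with no filter on signal. The methods' t-test called 0 after Benjamini-Hochberg adjustment, with 7 miRNAs at an unadjusted p under 0.05 and 1 under 0.01 unpaired, and 4 and 0 paired by array. Without the pairing by array (no replicate block: pools of the strains compared through their log2 signals) 0 were called, 8 had an unadjusted p under 0.05, and miR-223 turned to -0.088. The pairing comes from sharing an array and its normalization, and the chickens of the strains are not related by it.

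Other reversals of the mean log2 ratio were those of miR-223 to -0.036 with an offset of 10, to -0.026 with the median of 6 spots and to -0.0050 without replicate 2, of miR-451 to -0.073 with a dye term, and of miR-146b and miR-146c to 0.41 and 0.32 with median centring in place of loess, which raised the median of all 85 miRNAs to 0.51. Leaving out 1 array turned miR-146b to 0.097 and 0.00044 (without replicates 1 and 2), and without replicate 3 it turned miR-451 to -0.18, miR-146a to -0.10 and miR-126 to -0.23. The causes were not tested. With one array left out the means ran from -0.18 to 0.40 for miR-451, from -0.10 to 0.46 for miR-146a, from -0.52 to 0.097 for miR-146b, from -0.26 to -0.018 for miR-146c, from -0.0050 to 0.034 for miR-223 and from -0.23 to 0.71 for miR-126. The mean of miR-451 was 0.56 with plain subtraction, 0.57 with no replicate block, and 0.32 both in the authors' ratios and with median centring. The median over the detected members ran from -0.20 without replicate 3 to 0.36 with median centring. The number detected, 6 of 10, was 4 with a mean signal above 100, 5 where every pool had to be above 32, and 6 without loess and scaling. It was 6 to 7 with one array left out, when miR-155 joined without replicate 1. That entry of miR-155 rested on its single bright spot on array 2, where the median of its 6 spots gave 2.45 in the normal pool. With background from the empty spots all 10 were above 32, but so were 540 of 542 miRNAs, since the empty spots lay below the typical miRNA spot in Cy3 (654, 288 and 632 against 837, 309.7 and 707). The dim miR-223 stood only 3.15 to 9.21 noise units over background.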
